A study of Mus musculus with 8 samples.

Results

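The 9 subunit genes of the AMPA and kainate classes of ionotropic glutamate receptor, Gria1 to Gria4 and Grik1 to Grik5, were examined in RNA bound to tagged ribosomes. They were taken by gene symbol from the 32531 genes of the count tables, and 8 of the 9 had enough reads to be among the 12467 genes tested. The RNA came from the nucleus accumbens (4 libraries) and from the dorsal striatum (4 libraries) of mice aged over 20 months that carried the Drd1-EGFP/Rpl10a transgene (line CP73). In these Drd1-TRAP animals the dopamine D1 receptor gene's promoter drives a green fluorescent version of ribosomal protein L10a, and polysomes carrying it were pulled down with anti-EGFP antibodies from each dissected region. All 8 libraries came from animals of the same transgenic line and age class, all are immunopurified, and the sample titles name no treatment. The labels number the replicates 1 to 4 in each region but do not say whether a replicate is an animal or pooled tissue, and the p-values below cover only the differences between these libraries, which may be technical. Unpurified tissue RNA and younger animals were not analysed here.

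AMPA receptors are tetramers of the proteins GluA1 to GluA4, which Gria1 to Gria4 encode, and carry most fast excitatory current in the brain. A receptor that holds edited GluA2 lets little calcium through, so the mixture of subunits sets calcium permeability and rectification. Kainate receptors are tetramers of GluK1 to GluK5, encoded by Grik1 to Grik5, and act both at postsynaptic sites and on transmitter release. GluK1, GluK2 and GluK3 can form channels on their own, whereas GluK4 and GluK5, the high-affinity subunits, need a partner from the first 3. Projection neurons of the striatum receive glutamate from cortex, thalamus, hippocampus and amygdala, and their AMPA receptors are a known site of plasticity in the accumbens.

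Of the 8 subunits tested, 1 was called between regions, Grik3, which rose in the accumbens to 3.40 times its dorsal striatal level. Here called means that edgeR's quasi-likelihood test gave a p below 0.05 after Benjamini-Hochberg adjustment over all genes, which 3.72% of the 12467 genes tested met. Before adjustment, 4 of the 8 had a p under 0.05 (Gria1, Gria3, Grik3 and Grik5), against 14.8% of all genes tested. The log2 fold change, accumbens over dorsal striatum, was positive for 1 of 4 AMPA subunits, Gria1, and for 4 of 4 kainate subunits tested. The kainate count includes Grik2, whose value was close to 0. The median log2 fold change was -0.30 over the 4 AMPA subunits and 0.81 over the 4 kainate subunits, beside 0.02 over all genes tested.

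Promoters are shown for the subunit that was called and for the kainate subunit whose levels lay closest between regions. RefSeq sequences of build GRCm38.p6, from 250 bases before to 50 after the annotated start, were at hand for 6 of the 9 subunits. Grik3 starts on the plus strand and its window is chr4:125490446-125490745. Grik2 starts on the minus strand and its window is chr10:49788705-49789004. Both are written 5′ to 3′ along the gene, with capitals on each GGGCGG (the GC box) and each TGACG (the core of a cyclic AMP response element), read on either strand.
Grik3: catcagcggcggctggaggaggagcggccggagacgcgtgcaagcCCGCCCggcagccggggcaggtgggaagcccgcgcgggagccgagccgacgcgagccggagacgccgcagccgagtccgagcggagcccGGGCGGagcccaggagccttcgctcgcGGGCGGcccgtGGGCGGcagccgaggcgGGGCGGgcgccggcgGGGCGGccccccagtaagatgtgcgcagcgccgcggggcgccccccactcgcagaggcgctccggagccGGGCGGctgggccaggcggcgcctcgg
Grik2: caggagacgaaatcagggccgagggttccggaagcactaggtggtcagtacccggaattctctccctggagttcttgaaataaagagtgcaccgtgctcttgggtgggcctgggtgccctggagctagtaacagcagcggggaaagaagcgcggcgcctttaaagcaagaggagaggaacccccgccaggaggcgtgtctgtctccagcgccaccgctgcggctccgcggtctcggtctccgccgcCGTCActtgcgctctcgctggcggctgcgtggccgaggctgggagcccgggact
The Grik3 window was 82.0% G and C, with 50 CpG pairs and 7 GC boxes. The Grik2 window was 64.7% G and C, with 26 CpG pairs, no GC box and 1 TGACG. Over 32851 promoters of the same length, the medians were 52.7% and 7 CpG pairs, 35.7% held GGGCGG and 20.8% held TGACG. The Grik3 window held no TGACG, so neither window held both kinds of motif. These are descriptions of the sequence, and the libraries did not measure what binds there.

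Gene counts ran from 10831937 to 12639641 in accumbens libraries and from 7466970 to 10363145 in dorsal striatal libraries. On these raw totals a count of 3 corresponds to 0.237 to 0.402 CPM, counts scaled to library size. The CPM values of genes use rescaled library sizes, on which this limit differs slightly. The D1 receptor gene itself, Drd1, stood at 363 to 555 CPM in the accumbens and 533 to 670 CPM in the dorsal striatum, so the marker that defines the labelled cells was present in every library. Of the 9 direct-pathway neuron markers, Drd1 among them and all tested, 1 was called higher in the accumbens and 2 lower. Of that list 2 had a positive log2 fold change, and its median was -0.363. The 9 markers of striatal projection neurons in general, all tested, summed to 8090 to 9240 CPM in the accumbens and 11500 to 13000 CPM in the dorsal striatum. Of these 9 markers, 5 were called lower in the accumbens and 0 had a positive log2 fold change, with a median of -0.713. Over all 12467 genes tested, 1.6% were called higher and 2.12% lower, and 6458 had a positive log2 fold change. The part of the projection neuron markers in the calls of other genes lower in the accumbens was not tested. RNA of other cells was also present. Drd2, the marker of the other projection neuron class, had 47.2 to 72.5 CPM in the accumbens and 15.9 to 32.4 CPM in the dorsal striatum, and its groups did not overlap. The astrocyte gene Slc1a2 had 215 to 639 CPM in the accumbens and 177 to 319 CPM in the dorsal striatum, and the oligodendrocyte gene Mbp 40.7 to 194 CPM and 77.0 to 109 CPM in the same order. The interneuron gene Sst had 30.4 to 57.1 CPM in the accumbens and 19.0 to 39.8 CPM in the dorsal striatum. Chat, Pvalb, Gfap and Pdgfra did not exceed 6.28 CPM in any library, and C1qa was at 0 in all 8, as was the cholinergic gene Slc18a3. In such pooled tissue, fewer cells of a type and less RNA per cell cannot be told apart.

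Gria1 encodes GluA1, the subunit whose insertion accompanies many forms of synaptic strengthening. Its levels were 428, 409, 470 and 400 CPM in accumbens libraries 1 to 4, against 364, 346, 338 and 299 CPM in dorsal striatal libraries 1 to 4. Every accumbens library lay above every dorsal striatal one, which held for 1 of the 8 subunits and, in either direction, for 9.69% of all genes tested (4.51% with the accumbens above and 5.18% with it below). Means were 427 ± 31.1 CPM in the accumbens and 337 ± 27.5 CPM in the dorsal striatum (SD, n = 4 each), a fold of 1.27 (95% interval 1.07 to 1.51). On the log2 scale this was 0.34 ± 0.12 (SE), and edgeR's quasi-likelihood test gave an adjusted p of 0.146, so Gria1 was not called.

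Gria2 encodes GluA2, the subunit that makes the channel nearly impermeable to calcium once its transcript is edited. It had 883, 994, 818 and 888 CPM in the accumbens, against 1030.2, 960, 1128 and 1030.9 CPM in the dorsal striatum. Accumbens 2 lay above dorsal striatum 2, and otherwise the accumbens libraries were the lower. The means were 896 ± 72.7 CPM in the accumbens and 1037 ± 68.8 CPM in the dorsal striatum (SD, n = 4 each), with a log2 fold change of -0.21 ± 0.11 (SE) and an adjusted p of 0.382 by edgeR's quasi-likelihood test.

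Gria3, on the X chromosome, encodes GluA3, which pairs with GluA2 in many forebrain receptors. It had 410, 484, 385 and 410 CPM in the accumbens, against 483, 532, 759 and 574 CPM in the dorsal striatum. Only accumbens 2 and dorsal striatum 1 crossed, at 484.3 and 482.6 CPM, and dorsal striatum 3 stood highest of all. Its log2 fold change was -0.47 ± 0.14 (SE; 95% interval -0.77 to -0.18), the lowest unadjusted p of the AMPA subunits at 0.00380. Its adjusted p was 0.0777 by edgeR's quasi-likelihood test, just outside the threshold. DESeq2 put it inside at 0.0369, as did edgeR with every counted gene kept, at 0.0403, with log2 fold changes of -0.47 in both.

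Gria4 encodes GluA4, best known from fast-spiking interneurons and cerebellum. It was the scarcest AMPA subunit, with 44.6, 67.7, 39.4 and 43.6 CPM in the accumbens, against 60.6, 59.2, 71.1 and 66.4 CPM in the dorsal striatum. Accumbens 2 lay among the dorsal striatal libraries while the other 3 accumbens libraries lay below all of them. Means were 48.8 ± 12.8 CPM in the accumbens and 64.3 ± 5.50 CPM in the dorsal striatum (SD, n = 4 each), and edgeR's quasi-likelihood test gave an adjusted p of 0.385 for a log2 fold change of -0.40 ± 0.20 (SE). Without accumbens 2 it was -0.60, with an adjusted p of 0.112. Gria2, Gria3 and Gria4 shared a library pattern. Accumbens 2 was the highest accumbens library for all 3, accumbens 3 the lowest, and dorsal striatum 3 the highest of its region. Gria1 had its highest value in accumbens 3.

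**Figure D1:**
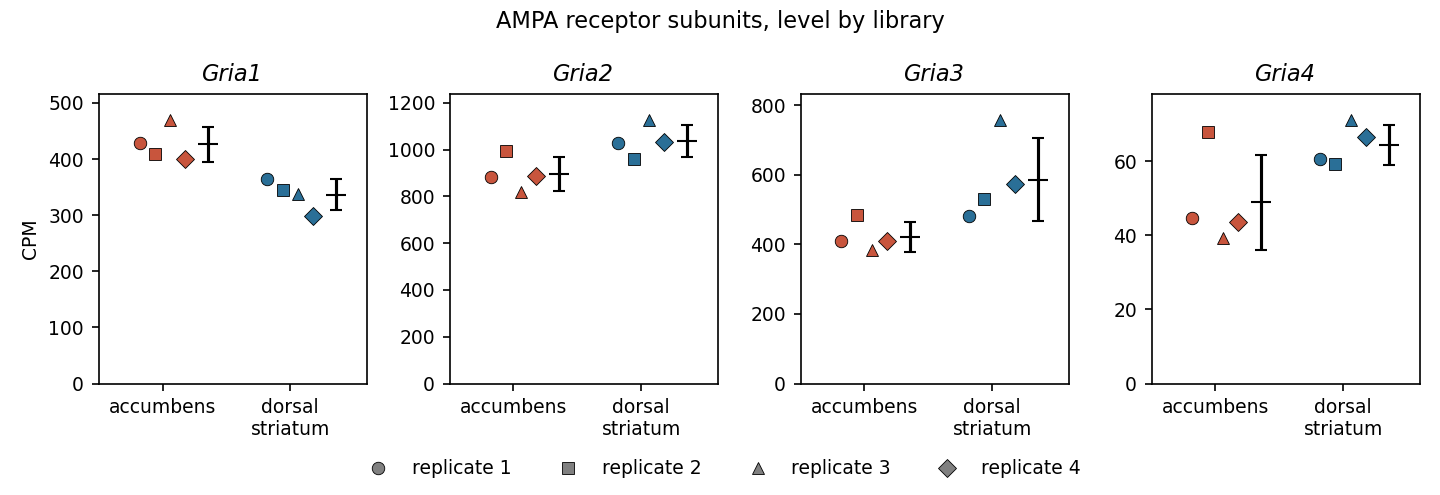
Level in CPM (linear axis from 0) of each AMPA receptor subunit in each library, accumbens left and dorsal striatum right. Bars show the mean and SD of 4 libraries. Gria1 is the panel in which the regions do not overlap, with 399.6 CPM or more in every accumbens library and at most 364 CPM in the dorsal striatum.

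Grik3 encodes GluK3, a low-affinity kainate subunit known for presynaptic receptors. It had 81.1, 68.4, 81.8 and 42.3 CPM in accumbens libraries 1 to 4, against 11, 43.1, 11.3 and 14.7 CPM in dorsal striatal libraries 1 to 4. The regions crossed only at accumbens 4 and dorsal striatum 2, and the other 3 dorsal striatal libraries were far below all accumbens libraries. These rest on 511 to 1035 reads per accumbens library and 82 to 406 per dorsal striatal library. Means were 68.4 ± 18.5 CPM in the accumbens and 20.0 ± 15.5 CPM in the dorsal striatum (SD, n = 4 each). This gave a log2 fold change of 1.77 ± 0.38 (SE), a fold of 3.40 (95% interval 1.96 to 5.90), with an adjusted p of 0.0102 by edgeR's quasi-likelihood test. Without dorsal striatum 2 the log2 fold change was 2.47 with an adjusted p of 1.22e-04, and with each of the other 7 libraries left out in turn it was 1.57 to 1.95 and stayed called, with an adjusted p of at most 0.0498.

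Markers of other cells moved with Grik3 in part. Slc17a7, the vesicular glutamate transporter of cortical neurons, had 59.8, 36.4, 54.4 and 14.2 CPM in the accumbens, against 20.6, 39.7, 2.4 and 0.985 CPM in the dorsal striatum. It was thus low in accumbens 4 and high in dorsal striatum 2, as Grik3 was within each region, but dorsal striatum 1 had more Slc17a7 than accumbens 4 and much less Grik3. Of the 6 glutamatergic neuron markers, 5 were tested, none was called, 3 were positive and none was at 0 in all libraries. Their summed level was 23.8 to 100 CPM in the accumbens and 4.43 to 109 CPM in the dorsal striatum. With the mean level of these markers as a covariate, chosen after seeing the data, Grik3 stayed called with a log2 fold change of 1.62 and an adjusted p of 0.00834. The 7 indirect-pathway neuron markers, all tested, separated fully by region, with a summed level of 633 to 913 CPM in the accumbens and 227 to 353 CPM in the dorsal striatum. Of these, 6 had positive log2 fold changes, against 6458 of the 12467 genes tested, with a median of 1.11 over the list. From the list 3, Drd2, Adora2a and Penk, were called higher in the accumbens, against 1.6% of all genes tested. The part of the indirect-pathway markers in the Grik3 result was not tested. Summed astrocyte markers were 262 to 704 CPM in the accumbens and 199 to 374 CPM in the dorsal striatum, and 1 of the 8 tested, Slc1a2, was called higher in the accumbens (adjusted p 0.0452 by edgeR's quasi-likelihood test). With glial marker level (of astrocytes, oligodendrocytes and microglia together) added to the fit, the Grik3 log2 fold change was 1.28 and its adjusted p 0.200, and the genes called over the whole table fell to 127, against 464 without the covariate. This level, on a centred log2 scale, was -0.0167 to 0.714 in accumbens libraries and -0.971 to 0.346 in dorsal striatal libraries. It went partly with region, so that fit cannot tell glial content and region apart. Without both accumbens 2 and dorsal striatum 3, the Grik3 log2 fold change was 1.57 and its adjusted p 0.0610 by edgeR's quasi-likelihood test.

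Grik2 encodes GluK2, the core subunit of most brain kainate receptors. Its levels were 101, 123, 96.6 and 113 CPM in the accumbens, against 108, 105, 102 and 117 CPM in the dorsal striatum. The regions overlapped throughout. Means were 108.4 ± 12.1 CPM in the accumbens and 108.2 ± 6.33 CPM in the dorsal striatum (SD, n = 4 each), and the 95% interval of the fold ran from 0.808 to 1.24. Grik2 had a log2 fold change of 0.0025 ± 0.15 (SE), and 8 of 20 alternative settings gave it the opposite sign, so no direction is stated for it.

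Grik5 encodes GluK5, the usual high-affinity partner of GluK2. It had 133, 175, 137 and 101 CPM in the accumbens, against 114, 122, 80.0 and 63.2 CPM in the dorsal striatum. Accumbens 4 lay below dorsal striatum 1 and 2, and the other accumbens libraries lay above the whole dorsal group. Means were 136 ± 30.0 CPM in the accumbens and 94.9 ± 28.0 CPM in the dorsal striatum (SD, n = 4 each), a log2 fold change of 0.52 ± 0.21 (SE) with an adjusted p of 0.227 by edgeR's quasi-likelihood test. With the glial markers as a covariate this was 0.20.

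Grik4 encodes GluK4, the other high-affinity subunit. It was scarce, at 6.10, 9.90, 7.51 and 5.71 CPM in the accumbens, against 6.74, 2.76, 2.49 and 1.58 CPM in the dorsal striatum. Dorsal striatum 1 fell within the accumbens range and the other dorsal striatal libraries lay below it. On 68 to 116 reads per accumbens library and 16 to 57 per dorsal striatal library, the log2 fold change was 1.11 ± 0.56 (SE; 95% interval -0.08 to 2.30) and the adjusted p 0.382 by edgeR's quasi-likelihood test, so Grik4 was not called. Without dorsal striatum 1 the log2 fold change was 1.68 and the adjusted p 0.214.

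Grik1, which encodes GluK1, was near the limit of counting. Its reads numbered 3, 0, 15 and 3 in the accumbens, against 0, 38, 1 and 3 in the dorsal striatum. A single library, dorsal striatum 2 at 4.03 CPM, held most of them, and the gene did not pass the filter on low counts and was not tested. Where no read was seen, a count of 0 allows up to 0.251 CPM in accumbens 2 and 0.347 CPM in dorsal striatum 1, on raw totals and for counting error only.

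**Figure D2:**
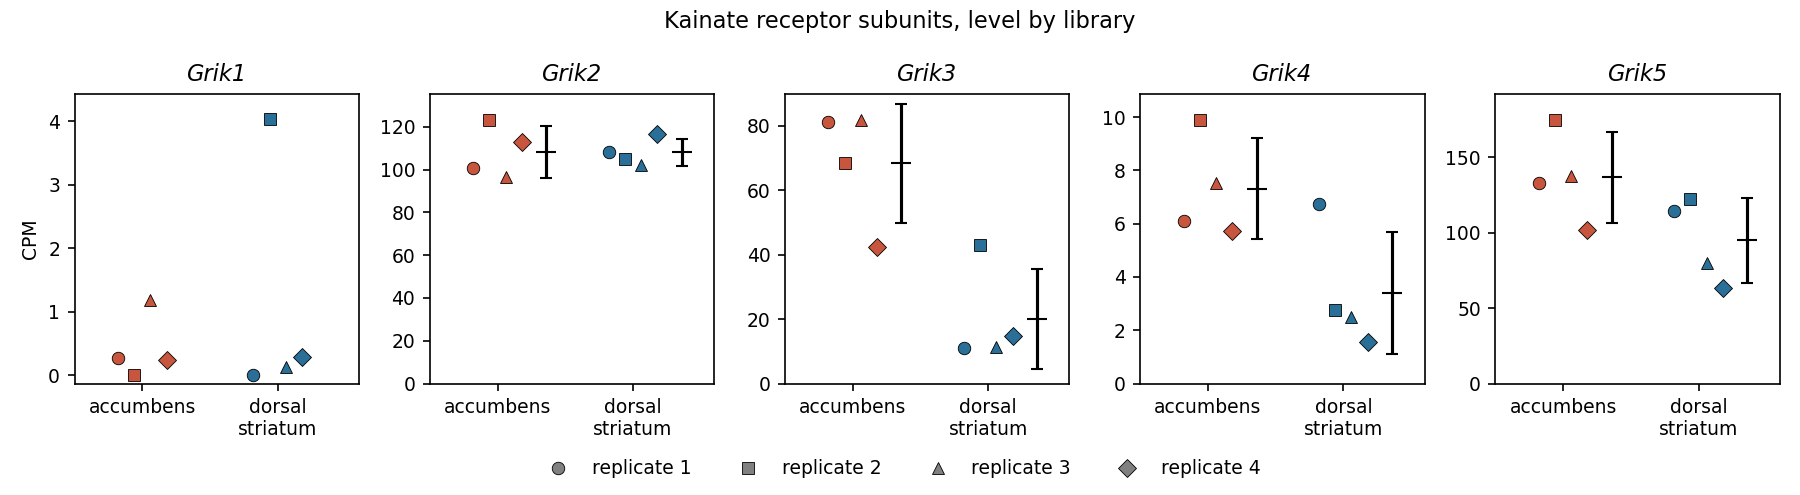
Level in CPM (linear axes, each panel on its own scale) of each kainate receptor subunit in each library, accumbens left and dorsal striatum right. Bars show the mean and SD of 4 libraries and are left out for Grik1, which was near 0. Grik3 separates most, apart from accumbens 4 at 42.3 CPM and dorsal striatum 2 at 43.1 CPM.

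**Figure D3:**
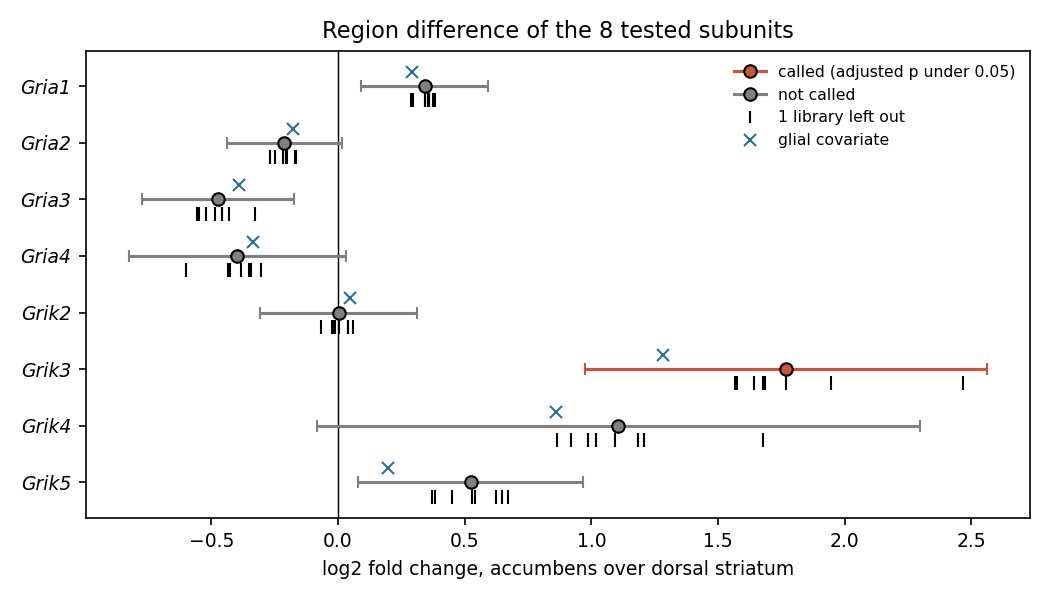
Log2 fold change, accumbens over dorsal striatum, of the 8 tested subunits, with the 95% interval. Short ticks give the value with each library left out in turn and crosses the value with glial markers as a covariate. Grik3 is the called subunit, at 1.77, and its cross lies at 1.28.

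For levels between genes, counts were divided by gene length, the merged exons of GENCODE M21. Per kilobase, the order in the accumbens was Gria1 at 70.6 ± 5.15, Gria2 at 57.6 ± 4.68, Gria3 at 42.8 ± 4.36 and Grik5 at 26.4 ± 5.80 CPM per kb (SD, n = 4). Then came Grik2 at 8.18 ± 0.913, Gria4 at 7.74 ± 2.03 and Grik3 at 7.62 ± 2.06 CPM per kb, which did not differ beyond their spread. Grik4 at 1.23 and Grik1 at 0.0633 CPM per kb closed the order. In the dorsal striatum Gria2 led at 66.7 ± 4.42 CPM per kb, with Gria3 at 59.5 ± 12.2 and Gria1 at 55.7 ± 4.56 following, Gria3 within its spread of both neighbours. There Grik5 had 18.4 ± 5.42, Gria4 10.2 ± 0.872, Grik2 8.17 ± 0.478 and Grik3 2.23 ± 1.72 CPM per kb. The order of the first 3 depends on the length used. By the longest transcript, Gria3 led in the dorsal striatum with 39.2% of the AMPA sum, against 35.2% for Gria2. Per kilobase of coding sequence, Gria2 stood at 338 and Gria1 at 157 CPM per kb in the accumbens. Of the 15548 bases of merged Gria2 exons, 2649 are the longest coding sequence.

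The balance of subunits within a library does not depend on library size. Gria1 made up 39.6 ± 3.71% of the summed AMPA level per kb in the accumbens and 29.1 ± 3.34% in the dorsal striatum (SD, n = 4 each), with ranges of 35.4% to 44.3% and 25.8% to 32.6%. Gria3 made up 23.9 ± 1.42% in the accumbens and 30.8 ± 3.80% in the dorsal striatum, and Gria2 32.2 ± 1.58% and 34.8 ± 1.28% in the same order. For these 3 subunits the regions did not overlap, Gria1 being higher in the accumbens and the others lower. Shares within a library are parts of the same sum, so these 3 results are not separate observations. In CPM, Gria1 did not overlap, whereas Gria2 and Gria3 did. The sizes depend on the length used. By coding length Gria1 made up 23.5% in the accumbens and 16.4% in the dorsal striatum, and Gria2 50.3% and 51.7% in the same order. Gria1 and Gria3 stayed without overlap under each of the other 3 choices (longest transcript, coding length and no length), whereas the Gria2 shares overlapped under all 3. The Gria4 shares, 4.30 ± 0.899% in the accumbens and 5.31 ± 0.264% in the dorsal striatum, did overlap. The ratio of Gria1 to Gria2 per kb was 1.24 ± 0.18 in the accumbens, from 1.06 to 1.48, and 0.838 ± 0.093 in the dorsal striatum, from 0.745 to 0.926, and changing the gene length rescales both regions alike. Shares are a description and were not tested.

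Among kainate subunits Grik5 held the largest share in both regions, 60.4 ± 2.86% in the accumbens and 61.5 ± 6.07% in the dorsal striatum. Grik3 held 17.5 ± 3.73% in the accumbens, from 13.9% to 20.8%, and 7.19 ± 3.99% in the dorsal striatum, from 3.76% to 12.8%, without overlap. Grik2 held 19.2 ± 4.0% in the accumbens and 28.9 ± 7.49% in the dorsal striatum, with overlap. By coding length, the dorsal striatal order turned, with 50.2% for Grik2 and 39.4% for Grik5. The summed level per kb was 178.8 ± 8.69 in the accumbens and 192.1 ± 16.4 in the dorsal striatum for AMPA subunits, and 43.5 ± 7.59 and 29.5 ± 6.75 in the same order for kainate subunits. The AMPA sum was 4.19 ± 0.62 times the kainate sum in the accumbens, from 3.66 to 5.08, and 6.82 ± 1.84 times in the dorsal striatum, from 4.86 to 8.70, so the regions overlapped.

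**Figure D4:**
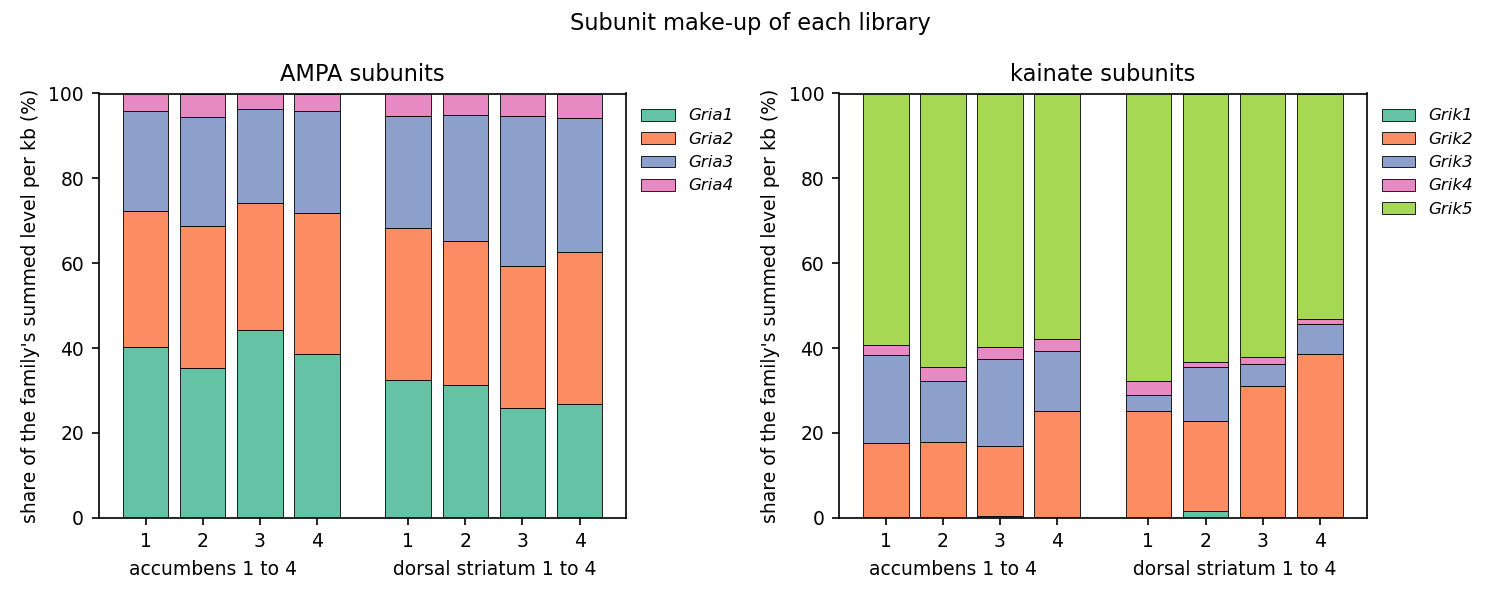
Share, in percent, of each subunit in the summed level per kb of its family, for AMPA subunits (left panel) and kainate subunits (right panel), with 1 bar per library, accumbens 1 to 4 before dorsal striatum 1 to 4. The Gria1 segment is 35.4% to 44.3% in accumbens bars and 25.8% to 32.6% in dorsal striatal bars.

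The subunits also differ in base composition. The longest transcripts of Gria1, Grik3, Grik4 and Grik5, the subunits with log2 fold changes of 0.34 or more, were 48.5%, 54.2%, 52.2% and 61.7% G and C. Those of Gria2, Gria3, Gria4 and Grik2 were 36.8%, 39.8%, 44.3% and 37.9%. After each library's trends with G and C content and transcript length were removed, Grik3 stayed called with a log2 fold change of 1.70 and an adjusted p of 0.00952. In the same fit Gria1 was at 0.34, Gria2 at -0.09, Gria3 at -0.38, Gria4 at -0.36, Grik4 at 1.05 and Grik5 at 0.43. None of the 9 subunit genes has an exon that overlaps a gene on the opposite strand in GENCODE M21, and those of Gria2, Gria3, Gria4 and Grik4 each overlap 1 small RNA gene on their own strand. Grik3 spans chr4:125490700-125714173 and Gria1 chr11:57011387-57330244, both on the plus strand.

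Receptors reach and stay at synapses through auxiliary subunits, assembly factors and partners, so 7 lists of such genes were examined, 50 genes of which 47 were tested. Of these 2 were called higher and 4 lower in the accumbens, and 41 were not called, against 1.6% called higher and 2.12% called lower over all genes tested. The median log2 fold change of the 47 was 0.14. The lists were chosen with results of these data known and say nothing independent about direction.

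Among AMPA receptor auxiliary subunits, which ride with the channel and set its gating and surface level, 1 of 14 tested was called. Prrt1, also named SynDIG4 and known for holding extrasynaptic AMPA receptors, fell to 84.8 ± 10.6 CPM in the accumbens, against 133.6 ± 10.1 CPM in the dorsal striatum (SD, n = 4 each). Its libraries did not overlap, at 74.1 to 99.5 CPM and 120.3 to 144.9 CPM in the same order. The log2 fold change was -0.66 ± 0.15 (SE) and the adjusted p 0.0179 by edgeR's quasi-likelihood test, but the call was lost without accumbens 1 (adjusted p 0.0630), accumbens 4 (0.0714), dorsal striatum 1 (0.0579) or dorsal striatum 4 (0.0571), and without both accumbens 2 and dorsal striatum 3 (0.0679). Cacng2, the transmembrane regulatory protein stargazin, had 40.0 ± 13.7 CPM in the accumbens and 67.9 ± 7.77 CPM in the dorsal striatum. Its adjusted p was 0.104 by edgeR's quasi-likelihood test, 0.0428 by DESeq2 and 0.0185 by limma-voom. The most abundant were Shisa9 at 269 and 266 CPM, Shisa7 at 210 ± 44.9 and 239 ± 9.29 CPM and Gsg1l at 192 ± 49.6 and 258 ± 35.0 CPM, accumbens before dorsal striatum in each. These had adjusted p-values of 0.982, 0.633 and 0.224 by edgeR's quasi-likelihood test. The highest log2 fold change was that of Cacng8, 1.15 ± 0.61 (SE), at 13.4 CPM in the accumbens and 6.02 CPM in the dorsal striatum, with an adjusted p of 0.408.

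Kainate receptors have the auxiliary subunits Neto1 and Neto2, which slow the decay of their currents, and 1 of the 2 was called. Neto2 fell to 92.9 ± 20.8 CPM in the accumbens, against 168 ± 29.5 CPM in the dorsal striatum (SD, n = 4 each), with 74.5 to 122.3 CPM and 140.7 to 207.7 CPM in the same order and no overlap. The log2 fold change was -0.85 ± 0.18 (SE) with an adjusted p of 0.00877 by edgeR's quasi-likelihood test, and the call held with each library left out in turn, up to an adjusted p of 0.0446. Neto2 and Grik3 were thus called in opposite directions. Neto1, the more abundant, had 583 ± 36.6 CPM in the accumbens and 670.4 ± 140.7 CPM in the dorsal striatum, with a log2 fold change of -0.20 and an adjusted p of 0.553.

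Assembly factors build AMPA receptors in the endoplasmic reticulum, and 1 of 5 was called. Frrs1l, part of the complex that primes GluA tetramers, fell to 169 ± 17.3 CPM in the accumbens, against 261 ± 35.5 CPM in the dorsal striatum (SD, n = 4 each), without overlap. Its log2 fold change was -0.63 ± 0.14 (SE) and its adjusted p 0.0139 by edgeR's quasi-likelihood test. The call was lost without accumbens 1 (adjusted p 0.0550), accumbens 4 (0.0589) or dorsal striatum 4 (0.0509). The other 4 all had positive log2 fold changes, from 0.17 to 0.41, and were not called. Without accumbens 2 the Porcn value was -0.19, and without dorsal striatum 3 the Sacm1l value was -0.01. Porcn had 44.9 ± 24.8 CPM in the accumbens and 37.1 ± 8.45 CPM in the dorsal striatum, and Sacm1l 24.97 ± 1.78 and 22.1 ± 8.95 CPM in the same order.

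Among 10 tested extracellular organizers, proteins that hold glutamate receptors in place from the cleft, 2 were called higher and 1 lower in the accumbens. Olfm3, a secreted olfactomedin of the noelin family that binds AMPA receptors, rose to 47.1 ± 8.52 CPM in the accumbens, against 19.4 ± 1.08 CPM in the dorsal striatum (SD, n = 4 each). Its libraries ran from 39.2 to 57.1 CPM and from 18.4 to 20.6 CPM in the same order. The log2 fold change was 1.28 ± 0.22 (SE) and the adjusted p 0.00227 by edgeR's quasi-likelihood test, at most 0.0146 with any 1 library left out. Olfm1, of the same family, rose to 89.1 ± 18.9 CPM in the accumbens, against 45.9 ± 17.5 CPM in the dorsal striatum, with overlap and an adjusted p of 0.0369 by edgeR's quasi-likelihood test. Its log2 fold change was 0.96 ± 0.25 (SE). The Olfm1 call was lost with limma-voom (0.78, adjusted p 0.0567) and without both accumbens 2 and dorsal striatum 3 (0.79, adjusted p 0.192).

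Lrrtm2, a postsynaptic adhesion protein that binds neurexin and steadies AMPA receptors, fell to 74.5 ± 12.5 CPM in the accumbens, against 116 ± 14.1 CPM in the dorsal striatum, without overlap (SD, n = 4 each). Its log2 fold change was -0.64 ± 0.17 (SE) and its adjusted p 0.0405 by edgeR's quasi-likelihood test, against 0.102 at a log2 fold change of -0.55 after base composition and length trends were removed. Its exon overlaps Ctnna1 on the opposite strand, and the sources used here do not say whether reads were counted by strand. The calls of Olfm1 and Lrrtm2 each held with 2 of the 8 libraries left out in turn. For Olfm1 these were accumbens 4 and dorsal striatum 2, and without accumbens 1, 2 or 3 or dorsal striatum 1, 3 or 4 its adjusted p was 0.0978, 0.0976, 0.0670, 0.0994, 0.121 and 0.111. For Lrrtm2 they were accumbens 2 and dorsal striatum 3, and without accumbens 1, 3 or 4 or dorsal striatum 1, 2 or 4 its adjusted p was 0.113, 0.0991, 0.128, 0.121, 0.129 and 0.0865. The most abundant organizers besides Lrrtm2 were Lrrtm3, at 160.5 ± 21.5 CPM in the accumbens and 146 ± 17.5 CPM in the dorsal striatum, and Lrrtm4 at 91.8 ± 12.9 and 74.8 ± 23.3 CPM in the same order, neither called. Nptx2, a pentraxin that clusters AMPA receptors, had 8.89 ± 4.99 CPM in the accumbens and 16.6 ± 8.26 CPM in the dorsal striatum, with an adjusted p of 0.366.

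**Figure D5:**
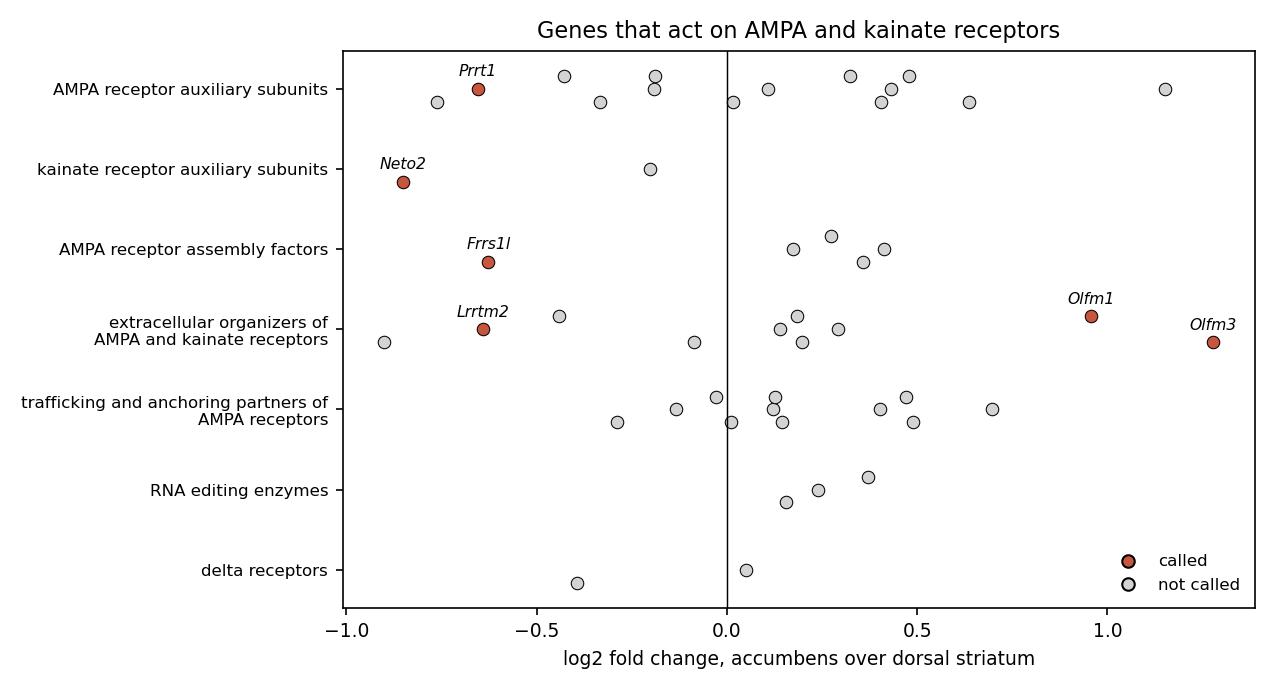
Log2 fold change, accumbens over dorsal striatum, of the 47 tested genes that act on AMPA and kainate receptors, by list, 1 point per gene (vertical spread within a list is for legibility). The 6 called genes are coloured and named, with Olfm3 at 1.28 the highest and Neto2 at -0.85 the lowest of them.

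None of 11 trafficking and anchoring partners was called by edgeR, DESeq2 or limma-voom, and 2 had an unadjusted p under 0.05, Akap5 and Nsg1. Akap5, the anchor of protein kinase A and calcineurin beside GluA1, was the most abundant, with 1467 ± 98.7 CPM in the accumbens and 1794 ± 229 CPM in the dorsal striatum (SD, n = 4 each) and an adjusted p of 0.206 by edgeR's quasi-likelihood test. Nsg1, an endosomal protein that sorts AMPA receptors, had 78.8 ± 10.4 CPM in the accumbens and 56.8 ± 8.74 CPM in the dorsal striatum, with overlap and an adjusted p of 0.202. Nsf, the fusion ATPase that binds GluA2, had 961 ± 29.5 CPM in the accumbens and 869.8 ± 63.9 CPM in the dorsal striatum, without overlap and with an adjusted p of 0.593. Nsg2, a neuronal endosomal protein that binds AMPA receptors, had 945 ± 80.3 CPM in the accumbens and 938 ± 87.3 CPM in the dorsal striatum. The 3 adenosine deaminases of the RNA editing list were not called by any of the 3 tools, and none had an unadjusted p under 0.05. Adarb1, the enzyme that edits the GluA2 transcript, had 141 ± 18.5 CPM in the accumbens and 127 ± 10.1 CPM in the dorsal striatum. Adar had 173 ± 10.4 and 146 ± 22.5 CPM in the same order, and Adarb2 15.2 ± 7.25 and 11.7 ± 5.93 CPM. Editing itself cannot be read from gene counts.

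Grid1, a delta receptor gene and structural relative of the AMPA and kainate classes, was not called, with 39.9 ± 2.78 CPM in the accumbens and 38.5 ± 9.58 CPM in the dorsal striatum (SD, n = 4 each). All 6 calls among the list genes were lost with the glial marker covariate, with adjusted p-values of 0.435 for Prrt1, 0.312 for Neto2, 0.487 for Frrs1l, 0.725 for Olfm1, 0.155 for Olfm3 and 0.210 for Lrrtm2. With that covariate the log2 fold changes were 1.095 for Olfm3, 0.48 for Olfm1, -0.49 for Prrt1, -0.42 for Frrs1l, -0.65 for Neto2 and -0.71 for Lrrtm2. The covariate goes partly with region, as given for Grik3, so a lost call does not show that glial RNA made the difference.

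Over the 8 libraries, the genes whose log2 CPM ran closest to that of Grik3, among 9808 genes averaging at least 5 CPM, were Lancl3 (Pearson r 0.974), Pnck (0.97) and Farp1 (0.957). Pnck had 50.3 ± 11.3 CPM in the accumbens and 25.3 ± 6.90 CPM in the dorsal striatum (SD, n = 4 each) and was called, with an adjusted p of 0.0293 by edgeR's quasi-likelihood test. Lancl3 and Farp1 were not. The gene closest to Gria3 was Dcaf7 (r 0.977), at 249 ± 13.3 CPM in the accumbens and 304 ± 41.0 CPM in the dorsal striatum and not called, and the next 2 were transcripts without a gene name in the files. These correlations are over 8 libraries of 2 regions that share depth and tissue content with the subunits, and are given as a description.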

How the data were processed

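RNA pulled down with tagged ribosomes was sequenced in 4 accumbens and 4 dorsal striatal libraries, grouped by title. The authors deposited raw read counts by gene symbol, not normalized. The submitters' processing notes name STAR 2.0.0e, HTSeq and the mm10 build. The sources used here do not give the annotation, strand setting or read filters. Reads with no single gene were left out, and reads of near-identical genes may be among them. They were 35.5% to 40.6% of accumbens libraries and 27.1% to 33.8% of dorsal striatal libraries, without overlap. The part of this difference in the fold changes was not tested.

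Regions were compared by the quasi-likelihood F test of edgeR 4.0.16 (R 4.3.3) after TMM scaling and filterByExpr (minimum count 10), with Benjamini-Hochberg adjustment over 12467 genes and calls under 0.05. The common biological coefficient of variation was 0.415. CPM values were computed on TMM-scaled sizes, with a prior count of 2 for log2 values. The code was tested on simulated data. All 28 library pairs differed by more than sampling noise. Lengths, base composition and positions came from GENCODE M21 (GRCm38), which is not known to be the authors' annotation.

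Members and lists were chosen with earlier results of these data known. The text names all 9 subunits, every called list gene and the 3 of highest mean CPM per list, the 3 genes most like the subunit of lowest adjusted p in each family, and set cell type markers; Cacng2, Cacng8, Nptx2 and Nsg1 were picked on their values. The alternatives were RLE and upper-quartile scaling, other filters (none, or 1 CPM in 4 libraries), DESeq2 1.42.0, limma-voom 3.58.1 with sample weights, a replicate block, a glial covariate, thinning to the smallest total, removed base composition and length trends, leaving out each library or both extreme ones, other gene lengths and, added after seeing the data, a covariate of glutamatergic neuron markers. Some genes that the rule took are left out of the text.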

Additional observations from a re-analysis of the deposited data

Results flagged for a closer look

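Within the 4 libraries of a region, 5 values lay far from the other 3, by a gap over the group's range above Dixon's critical value, a mark that chance meets in about 1 group in 20. All 9 subunits were screened in each region, in CPM and again as shares, so some marks would arise by chance. Grik3 had 43.1 CPM in dorsal striatum 2, against 11 to 14.7 CPM in the other dorsal striatal libraries. In the same library Grik1 had 4.03 CPM, against 0 to 0.296 CPM in the others, and its share of the kainate sum was 1.6%, against 0 to 0.191%. Both Grik1 marks rest on the same reads. The Grik2 share was 25.2% in accumbens 4 and 16.4% to 17.8% in the other accumbens libraries. The Gria4 share was 5.71% in dorsal striatum 4 and 5.15% to 5.21% in the others of its region. Why these libraries differ was not tested.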

How the results depend on the processing

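No called subunit or list gene changed direction under any alternative run. Among the 8 tested subunits the sign of Grik2 alone changed, between -0.09 and 0.10 on the log2 scale. Genes called over the whole table numbered 464, against 767 with DESeq2, 696 with every counted gene kept, 127 after adding glial marker level and 324 to 411 with 1 library left out. Among the 8 tested subunits 1 was called, against 2 with DESeq2 and 2 with every counted gene kept (Grik3 and Gria3), 0 with the glial covariate and 0 without accumbens 2 and dorsal striatum 3; unadjusted, 4 were under 0.05 by edgeR as reported above. Grik3 was called under 18 of 20 alternatives. The 6 called list genes became 0 with the glial covariate and 2 to 5 with 1 library left out. Scaling moved the median log2 fold change of all genes to at most 0.03. Deviations from the region means did not match by replicate number. Their correlations between same-numbered libraries were 0.014, -0.081, -0.043 and -0.035, and 0 libraries were closest to their own number. Such deviations also hold each library's own variation, so they cannot decide whether same-numbered libraries share an animal. The replicate block gave 432 called genes, 1 subunit and 6 list genes. Depth limits Grik1, at 0 to 38 reads per library, and why the alternatives differ was not tested.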
